A study of Mus musculus with 12 samples.

Results

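The response to liver resection was compared between CD115+ cells of the blood and of the spleen, to find the genes whose change differed from one tissue to the other. RNA-seq was available for 12 libraries, 3 in each of 4 groups: splenic cells of intact male C57BL/6 mice, splenic cells 24 h after removal of 70% of the liver with the spleen left in place, blood cells of intact mice, and blood cells 24 h after the same resection. The intact animals are described as having liver and spleen intact, and no sham operation is named for them in the labels, so the operation and the loss of liver tissue cannot be told apart. Each library was made from cells pooled over 5 animals, and the age of the animals is not given in the sources used here. Cells were taken by magnetic beads against CD115, the receptor encoded by Csf1r; the spleens were dispersed with collagenase and freed of red cells by lysis, a lysis step not described for the blood. For each gene the measure was the log2 fold change of resected over intact in blood minus the same in spleen. It was computed for all 12 libraries and 20135 features, 15680 of them gene symbols, and 49 gene symbols were called.

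Monocytes leave the bone marrow for the blood, and the spleen of the mouse holds a reservoir of them that can be released after tissue injury. Both populations carry the receptor for colony-stimulating factor 1, but the spleen also houses macrophages, dendritic cells and developing erythroid cells, and a sort for CD115 can take some of these along. After partial hepatectomy, monocytes that reach the liver take part in removing dead cells and in matrix turnover. In bulk RNA, fewer cells of a kind and less RNA per cell cannot be told apart, and this holds for every value below.

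The libraries held from 36990033 to 46401368 estimated counts. In blood libraries 13.2% to 34.2% of the gene counts fell on haemoglobin genes, and in splenic libraries 0.0814% to 3.47%. Csf1r itself was present in every library. Its levels were 467, 363 and 209 CPM (counts scaled to library size by the edgeR function cpm, with TMM factors) in the intact blood libraries and 601, 678 and 719 CPM in the resected ones. In spleen they were 374, 460 and 525 CPM before and 915, 1192 and 587 CPM after resection. The difference between its responses was -0.05 on the log2 scale (standard error 0.44, adjusted p = 0.982), so no difference was detectable at this spread. Blood intact library 3 stood apart from the other 2 of its group. Its Spearman correlations with them were 0.904 and 0.903, against 0.966 between those 2. Its 30 genes of cell cycle and DNA replication summed to 4524 CPM, against 670 and 602 CPM. Its T-cell markers summed to 2731 CPM, against 1045 and 961 CPM. Monocyte markers summed to 3338 CPM in it, against 8823 and 6002 CPM, and B-cell markers to 620 CPM, against 1999 and 2843 CPM. The reason was not tested.

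A gene was called where the adjusted p of the difference, from the quasi-likelihood test of edgeR and adjusted over all features after Benjamini and Hochberg, was under 0.05 and the absolute log2 difference was above 1. At these thresholds 57 features, or 0.283% of those tested, were called. Of these, 44 had the higher response in blood (0.219% of the features) and 13 the lower (0.0646%). Among gene symbols 43 were higher and 6 lower, and the other 8 features were RefSeq accessions without a matched symbol. By comparison, resection alone called 2801 features in blood, 13.9% of those tested, and 277 in spleen, 1.38%. Without adjustment, 3484 features (17.3%) had a p under 0.05 for the difference, 1559 higher (7.74%) and 1925 lower (9.56%). The calls lie close to the threshold: 73 gene symbols had an adjusted p under 0.06 and 202 one under 0.1. The last inside was Ptgs2 at 0.0470 and among the nearest outside was the chemokine Ccl3 at 0.0517, with a difference of 4.35 (standard error 0.75).

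**Figure D1:**
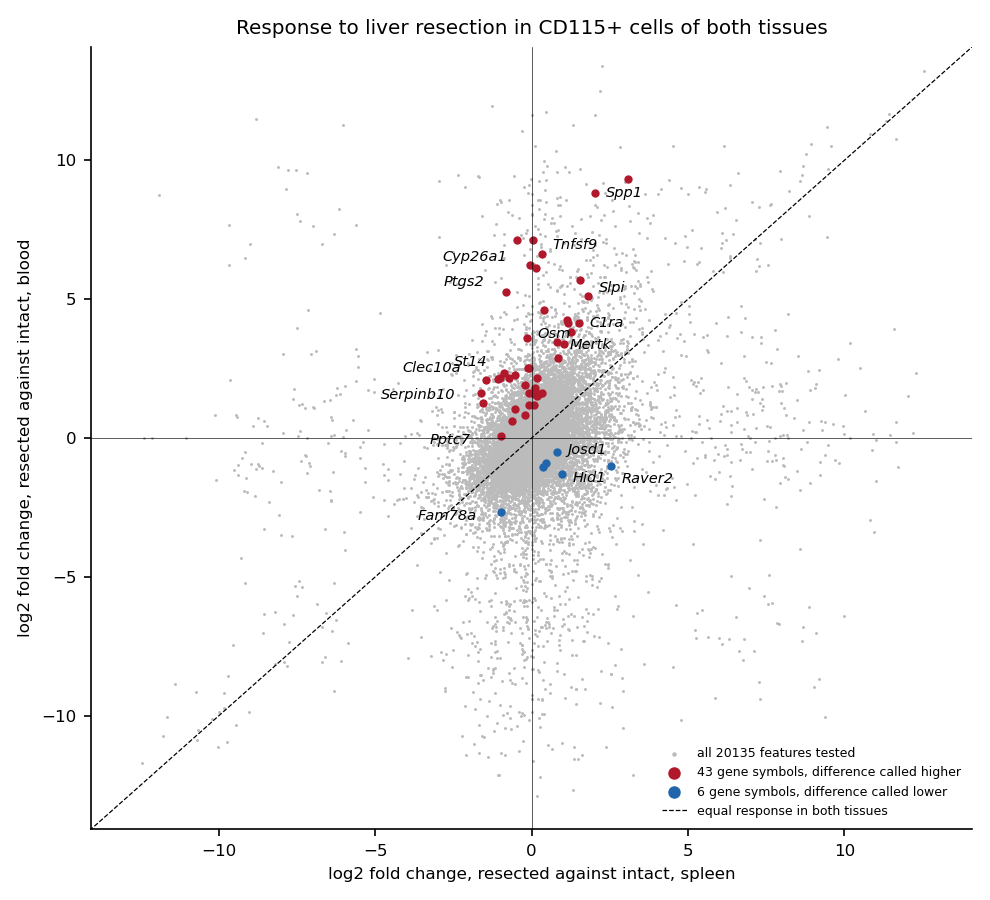
Log2 fold change of resected over intact libraries in spleen (x axis) against that in blood (y axis) for the 20135 features tested (grey), with the 43 gene symbols called higher (red) and the 6 called lower (blue) in blood. The red points lie above the dashed line of equal response and the blue points below it. Splenic responses of the red points lie on both sides of 0, with a median of 0.05.

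Most of the 43 genes with the higher blood response rose in blood and were not called in spleen. In blood, 40 of the 43 rose by that tissue's own test, by which 7.8% of all features rose and 6.11% fell. In spleen, 3 of these 40 rose as well (among them Slpi and C1ra), 3 fell (Clec10a, Serpinb10 and Cd300ld3) and 34 were not called, while 0.78% of all features rose and 0.596% fell there. The remaining 3, Rhoq, Pptc7 and Stx7, were called in neither tissue. Not called in spleen does not mean unchanged there: only 22 of the 43 had a splenic unadjusted p of at least 0.05. Over all 20135 features, 2308 rose and 1874 fell in spleen at an unadjusted p under 0.05. The median response of the 43 was 2.35 in blood and 0.05 in spleen on the log2 scale, which follows in part from the selection on their difference. The libraries of the 2 states did not overlap in blood for 42 of the 43 genes and in spleen for 27, while this held for 38.4% and 35.1% of all features. The absolute response was the larger one in blood for 39 of the 43. This count also follows in part from the selection, and the share over all features was not computed.

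The levels themselves separated the genes further. In intact animals, 29 of the 43 had the higher mean CPM in spleen and 14 in blood, and after resection 40 of the 43 were higher in blood. For 26 genes the order of the tissues was thus exchanged. Mertk, St14 and Adap2 differed: they were higher in spleen in both states, and the gap narrowed. All 6 genes with the lower blood response had the higher mean in blood before resection and in spleen after it. These counts follow in part from the selection on the difference, and the shares over all features were not computed. The order rests on group means alone, which could be nearly equal. For Cd300ld3 in intact animals, blood minus spleen was -0.0026 on the log2 scale.

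**Figure D2:**
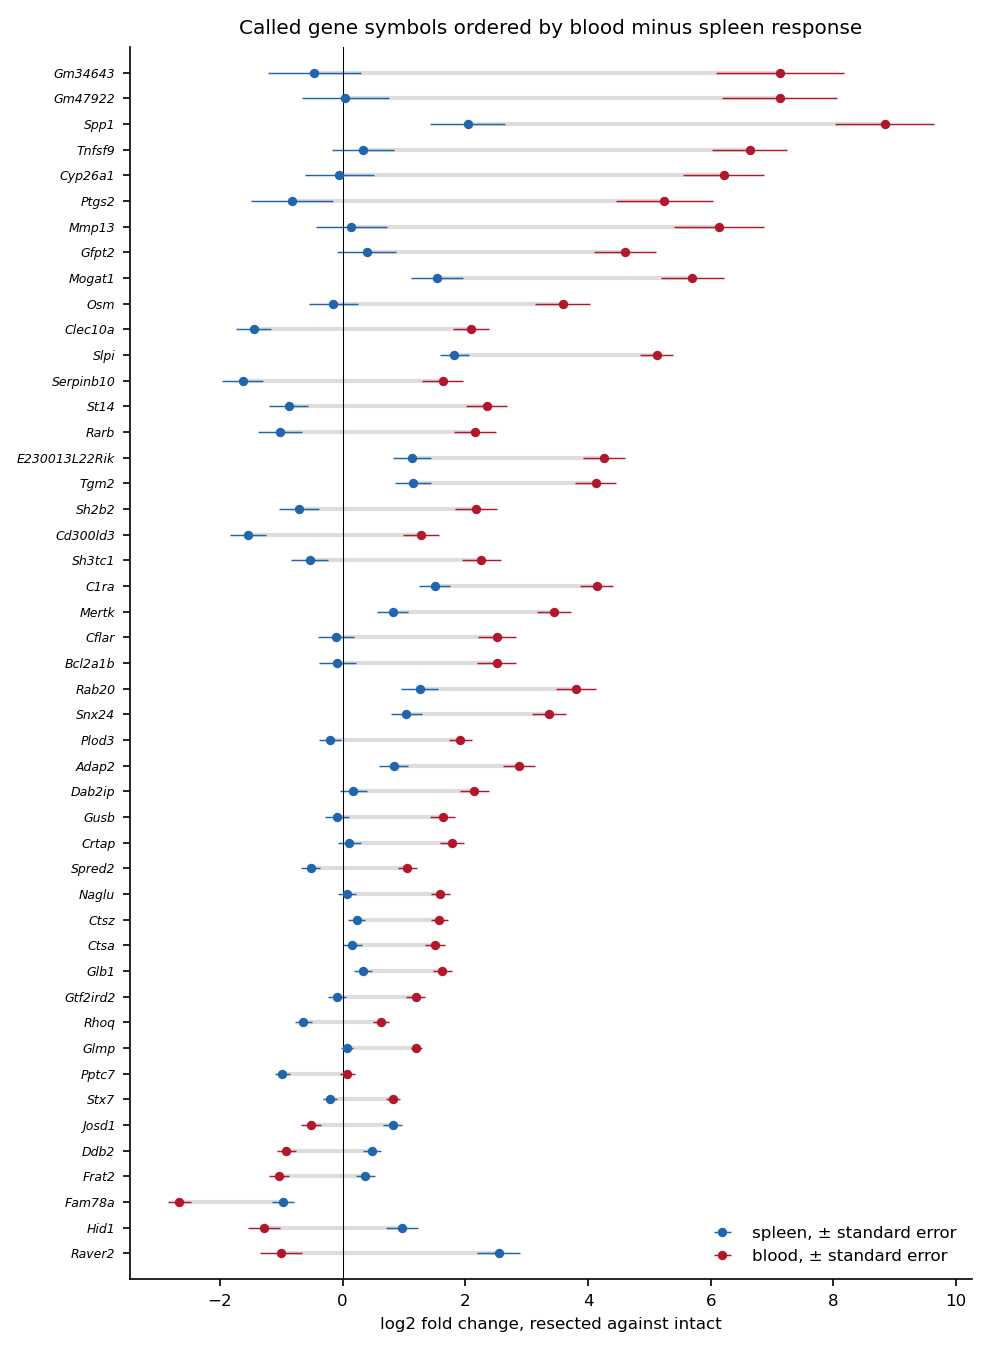
Log2 fold change of resected over intact libraries in spleen (blue) and blood (red), with standard errors from the common fit, for the called gene symbols reported here, ordered by the difference of both responses. The differences run from 7.59 for Gm34643 to -3.55 for Raver2, and 22 of all 43 genes called higher have responses of the same sign in both tissues.

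To let the regulatory sequence of genes of the main groups be seen beside their values, the 250 bases before the start of transcription are printed for Slpi, the gene with the smallest p of the difference, for Naglu, a lysosomal gene, and for Raver2, the gene symbol with the lowest difference. They come from RefSeq on GRCm38.p6, at chr2:164356508-164356757 on the minus strand, chr11:101069844-101070093 on the plus strand and chr4:101068788-101069037 on the plus strand, and are written 5′ to 3′ along the gene. Capitals mark matches, on either strand, to short motifs searched by their letters.
Slpi: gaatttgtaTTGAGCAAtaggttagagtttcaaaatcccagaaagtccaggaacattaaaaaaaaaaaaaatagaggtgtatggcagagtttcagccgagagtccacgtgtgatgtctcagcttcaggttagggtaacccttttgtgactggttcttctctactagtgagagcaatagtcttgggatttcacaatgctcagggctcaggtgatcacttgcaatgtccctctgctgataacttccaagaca
Naglu: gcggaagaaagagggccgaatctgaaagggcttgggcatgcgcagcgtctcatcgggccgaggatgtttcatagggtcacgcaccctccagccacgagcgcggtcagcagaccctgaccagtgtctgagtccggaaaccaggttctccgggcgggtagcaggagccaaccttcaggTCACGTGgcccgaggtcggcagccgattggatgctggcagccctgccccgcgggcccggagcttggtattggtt
Raver2: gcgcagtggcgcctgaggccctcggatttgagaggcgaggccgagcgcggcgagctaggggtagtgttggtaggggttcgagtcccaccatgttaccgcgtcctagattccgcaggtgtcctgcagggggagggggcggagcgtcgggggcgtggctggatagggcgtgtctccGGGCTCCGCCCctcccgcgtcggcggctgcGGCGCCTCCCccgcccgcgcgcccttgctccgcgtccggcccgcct
The capitals in Slpi match the C/EBP motif TTNNGCAA, and those in Naglu the E-box CACGTGA of the MiT/TFE factors. Those in Raver2 match a loose pattern searched for NF-kB, GGG and CC with any 5 bases between, with 3 matches of which 2 overlap. As this pattern leaves 5 bases free and was in 45.4% of all windows, a match does not mark an NF-kB site. Such windows were found for 34 of the 43 genes with the higher blood response. The C/EBP motif was in 6 of these 34 windows and in 9.55% of all 27025 windows, and the AP-1 motif TGANTCA in 7 and in 6.87%. The E-box was in 3 and in 3.15%, and the loose NF-kB pattern in 21 and in 45.4%. The GAS motif TTCNNNGAA was in 2 and in 7.18%, and the TATA box TATAAA in 4 and in 13%. These are descriptions of letters, with motifs chosen after the values were known, and no test was run on them.

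Protease inhibitors opened the list. Slpi encodes secretory leukocyte peptidase inhibitor, which blocks neutrophil elastase and cathepsin G. It stood at 105, 54.0 and 73.6 CPM in the intact blood libraries and at 2410, 2923 and 2759 CPM after resection. In spleen it went from 94.4, 106 and 124 CPM to 347, 399 and 395 CPM. The groups did not overlap in either tissue, and the intact levels of the tissues did overlap. The response was 5.12 in blood and 1.82 in spleen on the log2 scale, and the difference was 3.30 (standard error 0.33, adjusted p = 0.0136), the smallest p of all symbols. Slpi thus rose in both tissues, and by more in blood.

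Serpinb10, a serpin of haematopoietic cells, moved in opposite directions. In blood it rose from 22.7, 16.2 and 8.76 CPM to 52.1, 60.8 and 34.6 CPM, and in spleen it fell from 12.3, 12.2 and 12.7 CPM to 3.18, 4.63 and 4.20 CPM. The difference was 3.26 (standard error 0.47, adjusted p = 0.0334). Of 29 tested protease inhibitors 3 were called, Slpi and Serpinb10 among them, and 11 had a higher and 2 a lower blood response at an unadjusted p under 0.05. The median difference of the list was 1.39, against -0.12 over all features. For this and every list below, edgeR called 0.283% of all features. At an unadjusted p under 0.05, 7.74% of all features had a higher and 9.56% a lower blood response. Csta2 and A2m of this list were at 0 in every library. DESeq2 called 1163 of the 20135 features, 657 higher and 506 lower. Called higher by it were 10 protease inhibitors, 13 cytokines and growth factors, 9 scavenger and apoptotic cell receptors and 7 TNF superfamily genes. So were 6 complement, 4 matrix, 3 C-type lectin, 23 lysosomal and 2 retinoic acid genes, and 1 cytokine or growth factor was called lower.

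Matrix genes were next. Spp1 encodes osteopontin, a secreted matrix protein and integrin ligand made by activated macrophages. In blood it stood at 0.991, 1.13 and 4.52 CPM in intact and at 816, 1203 and 1042 CPM in resected animals. In spleen it stood at 2.99, 2.67 and 1.94 CPM and at 5.98, 6.88 and 18.3 CPM. The states did not overlap in either tissue, but the splenic response of 2.04 did not pass its test (adjusted p = 0.101). The blood response was 8.83, and the difference was 6.80 (standard error 0.90, adjusted p = 0.0317). Mmp13, collagenase 3, was at or under 3 counts in each intact blood library, and the ratio of resected to intact blood was 75.5 with a 95% counting interval from 34.4 to 207. Its resected blood libraries held 1.10, 3.57 and 6.33 CPM, and its splenic libraries from 0.480 to 0.830 CPM in both states. The fitted difference of Mmp13 was 5.99 (standard error 0.91, adjusted p = 0.0368). Of 29 tested matrix genes these 2 were called, while 5 had a higher and 2 a lower blood response at an unadjusted p under 0.05, with a median difference of 1.35. The count of 2 lower was 0 or 1 in 8 of the 12 fits without 1 library. The count of 5 higher was 15 without splenic resected library 3, 9 without blood resected library 1 and 8 without blood intact library 1. Plod3 and Crtap, which modify collagen chains in the endoplasmic reticulum, and Tgm2, a transglutaminase that cross-links proteins, were outside that list and were also called. Plod3 went from 155, 128 and 111 CPM to 461, 590 and 432 CPM in blood and from 91.7, 104 and 80.2 CPM to 72.6, 77.1 and 89.7 CPM in spleen, a difference of 2.12 (standard error 0.26, adjusted p = 0.0228). The differences were 1.68 for Crtap and 2.97 for Tgm2. Tgm2 was the more abundant in spleen before resection, at 93.7 to 108 CPM against 27.3 to 39.6 CPM, and reached 329 to 818 CPM in resected blood against 181 to 249 CPM in resected spleen.

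**Figure D3:**
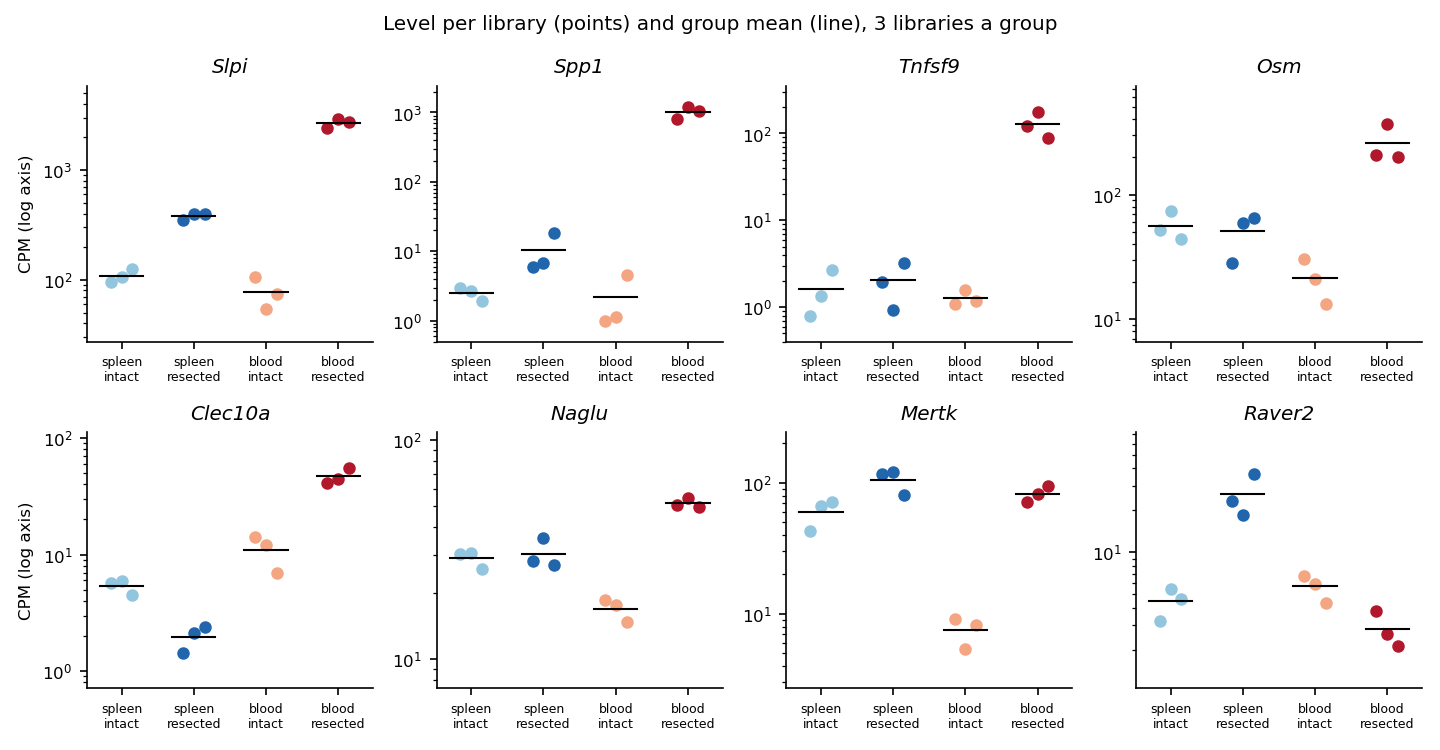
CPM (log axis) of 8 genes in each of the 12 libraries, with group means as lines. Slpi, Spp1, Tnfsf9 and Osm were highest in the resected blood libraries, Clec10a moved in opposite directions in the tissues, Naglu rose in blood, Mertk rose in blood to near its splenic level, and Raver2 was highest in resected spleen.

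Secreted and membrane-bound signals followed. Tnfsf9 encodes the ligand of 4-1BB, a costimulatory receptor of T cells. It went from 1.10, 1.59 and 1.18 CPM to 121, 176 and 89.3 CPM in blood. In spleen it was 0.80, 1.36 and 2.66 CPM before and 1.96, 0.917 and 3.22 CPM after resection, and these splenic groups overlapped. The blood response was 6.64, the splenic one 0.34, and the difference 6.30 (standard error 0.75, adjusted p = 0.0228). Of 36 tested ligands and receptors of the TNF superfamily, 1 was called. At an unadjusted p under 0.05, 12 had a higher and 4 a lower blood response, against 7.74% and 9.56% of all features. The median difference was 0.59. This median was 0.25 without blood intact library 3 and 0.92 without blood intact library 2, and the count of 4 lower was 1 without blood resected library 3 and 2 without splenic intact library 1, splenic resected library 3 or blood intact library 1.

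Osm encodes oncostatin M, a cytokine of the interleukin-6 family that acts on hepatocytes and stromal cells. It rose from 30.3, 21.2 and 13.2 CPM to 207, 371 and 199 CPM in blood and stood at 51.9, 73.3 and 44.0 CPM and then 28.1, 59.3 and 65.1 CPM in spleen, where the states overlapped. Its difference was 3.74 (standard error 0.59, adjusted p = 0.0433). Osm was the 1 gene called among 34 cytokines and growth factors, of which 15 had a higher and 1 a lower blood response at an unadjusted p under 0.05. The median difference of these 34 was 1.87, with median responses of 2.73 in blood and 0.93 in spleen. Il1b, Il1a and Il6 had differences of 4.98, 5.18 and 5.35, each with an adjusted p under 0.1 that missed the threshold (0.0639, 0.0639 and 0.0752). Of 23 chemokine ligands none was called by edgeR over all features, 8 had a higher blood response at an unadjusted p under 0.05 and 0 a lower one, and the median difference was 1.87. With DESeq2, 6 of the 23 were called higher, and edgeR called 3 with at least 10 counts in every library, over gene symbols only or without splenic resected library 3, and 2 without blood resected library 1. Ptgs2, the inducible cyclooxygenase of prostaglandin synthesis, went from 6.50, 9.35 and 1.57 CPM to 64.8, 383 and 212 CPM in blood and from 41.3, 65.0 and 75.6 CPM to 27.9, 27.3 and 47.2 CPM in spleen, with a difference of 6.07 (standard error 1.02, adjusted p = 0.0470).

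Surface lectins and uptake receptors included the clearest opposite response. Clec10a encodes a macrophage lectin for galactose and N-acetylgalactosamine. It rose from 14.1, 12 and 6.95 CPM to 40.8, 44.1 and 55.7 CPM in blood and fell from 5.70, 5.97 and 4.53 CPM to 1.43, 2.12 and 2.38 CPM in spleen. The groups overlapped in neither tissue. The responses were 2.09 and -1.45, both called, and the difference was 3.54 (standard error 0.41, adjusted p = 0.0215). It was the 1 called gene of 24 tested myeloid C-type lectins, of which 6 had a higher and 0 a lower blood response at an unadjusted p under 0.05, with a median difference of 1.05. Cd300ld3, of the CD300 family of myeloid receptors, had a like pattern, from 13.7 to 19.2 CPM in intact blood to 36.0 to 44.3 CPM in resected blood and from 13.3 to 19.8 CPM to 3.29 to 7.97 CPM in spleen. Its difference was 2.82 (standard error 0.41, adjusted p = 0.0334). The files do not state how reads shared by close relatives were assigned, so Clec10a, Cd300ld3, C1ra and Bcl2a1b, which have near copies in the mouse genome, are uncertain as single genes.

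Mertk encodes a receptor kinase for the uptake of apoptotic cells. In blood it rose from 9.17, 5.40 and 8.15 CPM to 71.6, 81.6 and 94.7 CPM. In spleen it stood at 42.8, 66.4 and 71.7 CPM and then at 116, 121 and 80.5 CPM, a response of 0.81 that did not pass its test (adjusted p = 0.115). The difference was 2.63 (standard error 0.37, adjusted p = 0.0334). Resected blood thus reached the range of the splenic libraries. Among 24 tested scavenger and apoptotic cell receptors Mertk alone was called by edgeR over all 12 libraries. Without splenic resected library 3 edgeR called 3 of them, and DESeq2 called 9. At an unadjusted p under 0.05, 12 had a higher and 1 a lower blood response. The median difference was 0.74, and it was 1.12, 1.15 and 1.39 without splenic resected library 3, blood resected library 1 and blood intact library 1. C1ra, a protease of the first complement component, rose in both tissues, from 9.11, 4.70 and 5.11 CPM to 98.0, 121 and 114 CPM in blood and from 2.29, 2.78 and 3.11 CPM to 8.17, 6.53 and 8.46 CPM in spleen. Its difference was 2.64 (standard error 0.35, adjusted p = 0.0317). Of 24 tested complement genes it was the 1 called, 8 had a higher and 0 a lower blood response at an unadjusted p under 0.05, and the median difference was 0.69.

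Lysosomal genes made up a group of small differences, whose calls depended on single libraries. Glmp, a glycosylated lysosomal membrane protein, was at 68.5, 67.3 and 69.4 CPM in intact and at 153, 160 and 159 CPM in resected blood. In spleen it was 77.6, 78.0 and 82.5 CPM and then 80.5, 85.9 and 83.8 CPM, so that the splenic groups overlapped. The difference was 1.13 (standard error 0.13, adjusted p = 0.0215). Naglu, which degrades heparan sulphate, went from 18.7, 17.6 and 14.7 CPM to 50.6, 54.1 and 49.3 CPM in blood and stayed between 25.7 and 35.7 CPM in the 6 splenic libraries, a difference of 1.53 (standard error 0.21, adjusted p = 0.0322). Gusb and Glb1, beta-glucuronidase and beta-galactosidase, had differences of 1.72 and 1.29 (standard errors 0.27 and 0.21, adjusted p = 0.0433 for each). The cathepsins Ctsz and Ctsa had differences of 1.35 each (standard errors 0.20 and 0.23, adjusted p = 0.0334 and 0.0467). Of the 12 fits without 1 library, Glmp was called in 6, Naglu in 4, Ctsz in 3 and Ctsa, Gusb and Glb1 in 2 each. The splenic responses of these 6 genes ran from -0.09 for Gusb to 0.33 for Glb1, and none was called. In a list of 51 lysosomal enzymes and membrane proteins, drawn up after the values of these 6 were known, 35 had a higher and 0 a lower blood response at an unadjusted p under 0.05, with median responses of 1.18 in blood and 0.16 in spleen. The count of 35 stayed between 29 and 35 when each library was left out in turn, while the number of called members ran from 0 to 6. Summed over the list, the intact blood libraries held from 6360 to 9518 CPM and the resected ones from 19790 to 23870 CPM, and the splenic libraries from 9077 to 9369 CPM and from 11250 to 13230 CPM. Stx7, a syntaxin of endosome fusion with lysosomes, had a difference of 1.03, with a blood response of 0.82 and a splenic one of -0.21.

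The retinoic acid pathway gave a pair of called genes. Cyp26a1, the hydroxylase that degrades retinoic acid, was at 0.0275, 0.103 and 0.0218 CPM in intact blood and at 4.21, 2.58 and 5.07 CPM in resected blood, while the splenic libraries held from 0.0842 to 0.149 CPM in both states. The highest of its intact blood libraries had 4 counts. Its difference was 6.26 (standard error 0.84, adjusted p = 0.0317). Rarb, a retinoic acid receptor, went from 4.46, 5.52 and 3.52 CPM to 21.0, 24.6 and 14.6 CPM in blood and from 0.589, 0.647 and 0.404 CPM to 0.187, 0.393 and 0.221 CPM in spleen. Its difference was 3.18 (standard error 0.50, adjusted p = 0.0433). Of 15 tested genes of the pathway, again listed after the values were seen, 5 had a higher and 0 a lower blood response at an unadjusted p under 0.05, and the median difference was -0.14. This median had no stable sign: it was 0.95 without blood intact library 3, 0.76 without splenic resected library 3, 0.74 without the filter on low counts (20 genes tested) and 0.27 with the replicate number as a block. The count of 0 lower was 3 with DESeq2, 2 over gene symbols only or without the filter, and at most 1 with 1 library left out. The count of 5 higher was 2 or 3 without splenic intact library 2, splenic resected library 1 or 2 or blood resected library 1 or 2. The receptors Rara and Rxra had differences of -0.29 and -0.14.

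The other genes with the higher blood response act in signalling, cell death, membrane traffic and metabolism. Spred2, an inhibitor of the Ras and MAP kinase pathway, went from 19.3, 17.2 and 22.7 CPM to 37.8, 39.3 and 45.9 CPM in blood and from 14.9, 16.4 and 13.9 CPM to 9.32, 10.6 and 11.7 CPM in spleen, a difference of 1.57 (standard error 0.22, adjusted p = 0.0333). St14, the membrane protease matriptase, went from 4.95, 4.60 and 1.88 CPM to 16.2, 22.4 and 19.7 CPM in blood and from 47.2, 37.7 and 34.0 CPM to 25.6, 20.7 and 18.3 CPM in spleen, a difference of 3.23 (standard error 0.46, adjusted p = 0.0334). The resected libraries of the tissues therefore overlapped in St14, where the intact ones lay far apart. The anti-apoptotic genes Cflar and Bcl2a1b had differences of 2.63 and 2.60, with splenic responses of -0.11 and -0.09. The small GTPases Rhoq and Rab20 had differences of 1.27 and 2.54, and the adaptor Sh2b2 and the Ras regulator Dab2ip of 2.88 and 1.97. Adap2 and Snx24, of membrane traffic, had differences of 2.04 and 2.33. Gfpt2, of hexosamine synthesis, had a difference of 4.21, and Mogat1, an acyltransferase of triglyceride synthesis, of 4.16, with a ratio in blood of 54.9 (95% counting interval 24.9 to 151) over at most 2 counts in an intact library. Sh3tc1, Gtf2ird2, Pptc7 and the long RNA E230013L22Rik had differences of 2.80, 1.28, 1.06 and 3.13. Pptc7 is a phosphatase of mitochondria and the 1 gene of the 43 whose blood libraries overlapped: it stood at 38.9 to 47.7 CPM and 44.4 to 49.6 CPM there, and at 43.2 to 52.6 CPM and 22.4 to 25.4 CPM in spleen. Gm34643 and Gm47922, without a known role, had at most 1 count in an intact blood library, and the ratios of resected to intact blood were 193 (95% counting interval 34.2 to 7680) and 183 (32.4 to 7290).

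Among the 6 genes with the lower blood response, Raver2 differed most. It encodes an RNA-binding protein that interacts with the splicing regulator PTB. It went from 3.20, 5.47 and 4.64 CPM to 23.2, 18.5 and 36.0 CPM in spleen and from 6.77, 5.94 and 4.33 CPM to 3.78, 2.58 and 2.11 CPM in blood. Raver2 thus rose in spleen, by 2.55 on the log2 scale, the blood response of -1.01 did not pass its test (adjusted p = 0.0582), and the difference was -3.55 (standard error 0.48, adjusted p = 0.0322). Fam78a, of no assigned role here, was the only 1 of the 6 with the same sign in both tissues. It fell from 158, 144 and 186 CPM to 31.9, 22.0 and 23.3 CPM in blood, and in spleen it stood at 67.6, 79.7 and 59.3 CPM and then at 35.2, 37.1 and 33.1 CPM, a response of -0.97 with an adjusted p of 0.0331 that missed the fold limit. The difference of Fam78a was -1.69 (standard error 0.25, adjusted p = 0.0334). Ddb2, which recognises DNA damaged by ultraviolet light, had responses of -0.92 in blood and 0.48 in spleen and a difference of -1.39. Hid1, of protein sorting in the Golgi, had responses of -1.28 and 0.97 and a difference of -2.25. Frat2, an inhibitor of GSK-3 in Wnt signalling, had responses of -1.03 and 0.37 and a difference of -1.40, and Josd1, a deubiquitinase, responses of -0.52 and 0.82 and a difference of -1.34. In blood only Fam78a, Hid1 and Frat2 fell by that tissue's test, and in spleen only Raver2 rose.

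Opposite signs with an unadjusted p under 0.05 in each tissue were found for 13 of the 49 genes, against 92 features in all, or 0.457% of those tested. In 8 of the 13 the response was positive in blood and negative in spleen (among them Clec10a, Spred2, St14, Serpinb10, Cd300ld3, Rhoq and Rarb), and in 5 the reverse (Raver2, Ddb2, Hid1, Frat2 and Josd1). Since these genes were called for their difference, their count was not tested.

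The 8 called accessions are entries of single transcripts, for which counts may be split between isoforms by the authors' estimation. Of the 7 with the lower blood response, 6 were at 0 counts in all 3 resected blood libraries. NR_176915 and NM_001411809 were at least 268-fold and at least 253-fold lower in resected than in intact blood, taking 3 counts over the resected blood libraries together as the limit. Neither was matched to a gene symbol, so no role can be given.

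The gene lists without a called member had values that moved with single libraries. The 30 genes of cell cycle and DNA replication all had a lower blood response, 24 of them at an unadjusted p under 0.05, with a median difference of -2.89 and median responses of -1.35 in blood and 1.64 in spleen. Blood intact library 3 weighed on this: without it the median was -0.80 and the count 6. The count was also between 5 and 14 in the other 7 of the 8 fits without 1 library that moved it by more than 1.5 times, which left out splenic intact libraries 1 or 2, splenic resected libraries 2 or 3 or any of the resected blood libraries. The 33 immediate-early and NF-kB feedback genes had 12 higher and 2 lower at an unadjusted p under 0.05 and a median difference of 0.42. For 28 genes of hypoxia and glycolysis the numbers were 7, 0 and 0.59, for 19 glucocorticoid-responsive genes 6, 2 and 0.72, and for 32 interferon-stimulated genes 5, 1 and 0.47. For 17 genes of MHC class II and costimulation they were 3, 0 and 0.15, for 24 genes of classical and nonclassical monocytes 4, 1 and 0.49, and for 23 chemokine receptors 6, 3 and 0.11. Without blood intact library 3 the medians fell to 0.17 for immediate-early, 0.44 for glucocorticoid-responsive, 0.16 for interferon-stimulated and 0.31 for monocyte genes, and to -0.25 for MHC class II and -0.31 for chemokine receptors, which thereby changed sign. The MHC class II median was also -0.25 without splenic resected library 3 and -0.09 without blood resected library 1, and that of the chemokine receptors was -0.11 without blood resected library 1. The highest medians with 1 library left out were 0.71 and 0.50 for immediate-early and MHC class II genes and 0.51 for chemokine receptors (without blood intact 2), 1.42 and 1.00 for glucocorticoid-responsive and hypoxia genes (without splenic resected 3) and 0.80 for interferon-stimulated genes (without blood intact 1). The hypoxia median was lowest, at 0.38, without splenic resected library 2. The counts of lower genes ran from 0 to 4 for immediate-early and monocyte genes, from 1 to 4 for chemokine receptors, from 1 to 3 for glucocorticoid-responsive and from 0 to 3 for interferon-stimulated genes, each highest, or tied for the highest, without blood intact library 3. The fit of all 12 libraries over all features called none of these genes with edgeR, which called 1 immediate-early and 1 hypoxia gene without splenic resected library 3 and 1 hypoxia gene with at least 10 counts in every library or over gene symbols only, while DESeq2 called 5 cell cycle genes lower and 8 immediate-early, 1 hypoxia, 2 glucocorticoid-responsive, 4 interferon-stimulated, 2 MHC class II, 1 monocyte and 4 chemokine receptor genes higher, with 1 glucocorticoid-responsive and 1 chemokine receptor gene lower. The edgeR counts of higher genes at an unadjusted p under 0.05 depended on single libraries. Without splenic resected library 3 the hypoxia, monocyte and interferon counts were 13, 10 and 8. The lowest counts with 1 library left out were 2 for hypoxia (splenic resected 1 or 2, blood resected 3), 2 for glucocorticoid-responsive genes (splenic intact 1, splenic resected 1, blood resected 3, blood intact 3) and 1 for monocyte genes (splenic intact 1, splenic resected 1 or 2, blood resected 3).

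**Figure D4:**
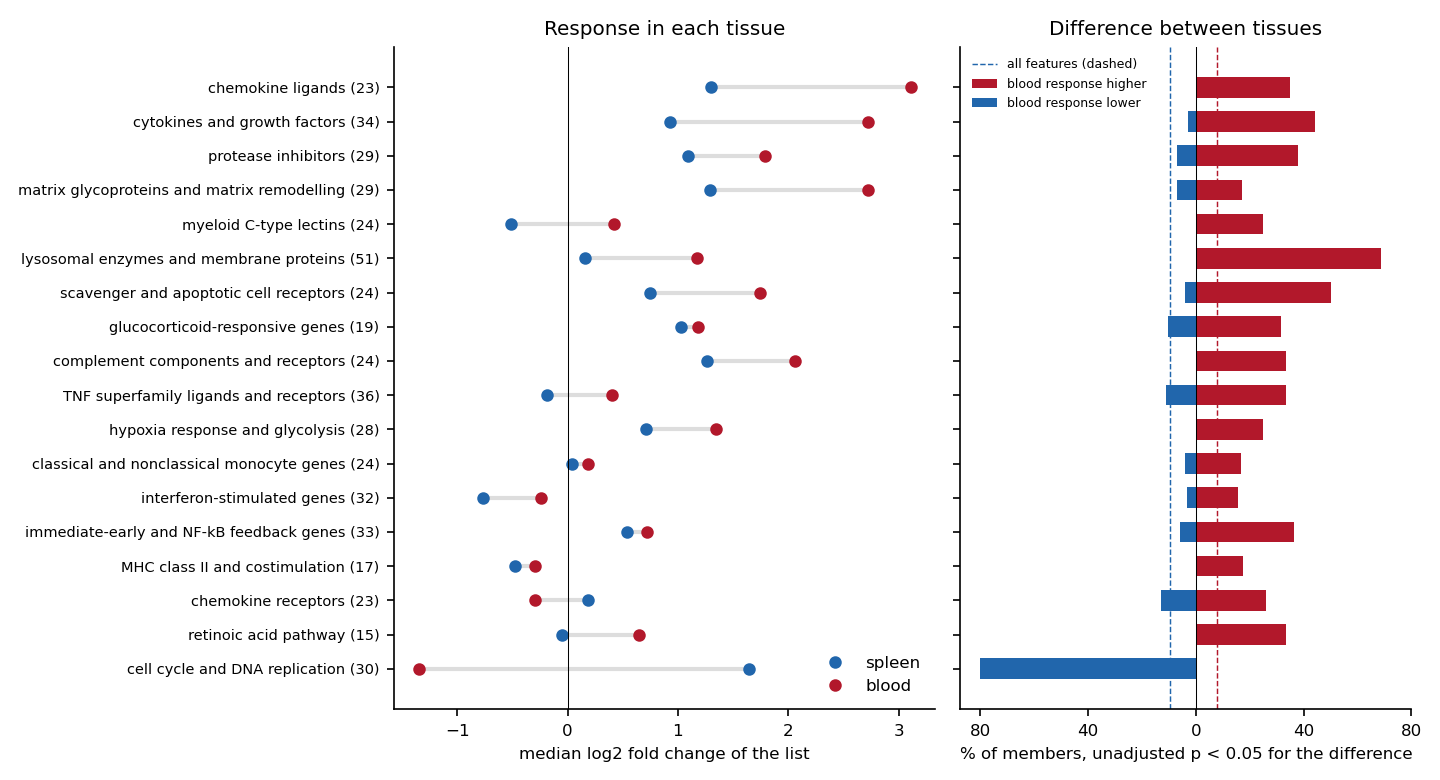
Left, median log2 fold change of each gene list in spleen (blue) and blood (red), with the number of tested members in brackets. Right, percentage of members with an unadjusted p under 0.05 for the difference, higher in blood to the right and lower to the left, with all features as dashed lines. Lysosomal genes reach furthest to the right (35 of 51) and cell cycle genes furthest to the left (24 of 30), a count that was between 5 and 14 in 8 of the 12 fits without 1 library.

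Markers of other cells moved beside these genes. The 12 neutrophil markers summed to 144 to 506 CPM in intact and 3929 to 21250 CPM in resected blood, and to 1342 to 2332 CPM and 5719 to 15270 CPM in spleen. All 12 had a higher blood response in sign, 7 at an unadjusted p under 0.05, with a median difference of 2.19. The count of 7 was 4 without splenic resected library 1 and 4 without blood resected library 3. The 9 peritoneal macrophage markers summed to 339 to 1096 CPM and 8912 to 13400 CPM in blood and to 102 to 160 CPM and 399 to 1002 CPM in spleen, and 4 of the 9 had a higher and 0 a lower blood response at an unadjusted p under 0.05. The 10 red pulp macrophage markers summed to 268 to 840 CPM and 2939 to 3733 CPM in blood and to 1448 to 2202 CPM and 3115 to 6254 CPM in spleen, with 5 higher and 0 lower. The 8 monocyte markers summed to 3338 to 8823 CPM and 12510 to 14480 CPM in blood and to 2575 to 2831 CPM and 2188 to 3755 CPM in spleen, with 2 higher and 0 lower. The 8 erythroid markers ran the other way, with 6 lower at an unadjusted p under 0.05 and a median difference of -2.66, or -1.69 without splenic resected library 2: they summed to 124200 to 404900 CPM and 217900 to 529500 CPM in blood and to 716 to 3374 CPM and 7518 to 32780 CPM in spleen. Their count of 6 was between 0 and 3 without splenic intact library 1 or 2, splenic resected library 2, blood resected library 1 or 3 or blood intact library 1 or 2. No defining marker of these lists was at 0 in every library. The 8 hepatocyte markers were too low to be tested, with sums of 0.0257 to 1.98 CPM. The part of these cells in the called differences was not tested.

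The remaining marker lists held few such genes. At an unadjusted p under 0.05 the 9 B-cell markers had 0 higher and 0 lower, the 10 T-cell markers 0 and 2, the 7 tested NK-cell markers 0 and 0 and the 7 plasma cell markers 1 and 1. The 8 platelet markers had 1 and 0, the 9 dendritic cell markers 1 and 1, the 9 eosinophil and basophil markers 0 and 0, and the 5 tested mesothelial markers 1 and 0. Single libraries moved such counts. The NK-cell count of 0 higher was 3 without splenic resected library 1. The eosinophil and basophil count of 0 lower was 2 without blood intact library 3.

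**Figure D5:**
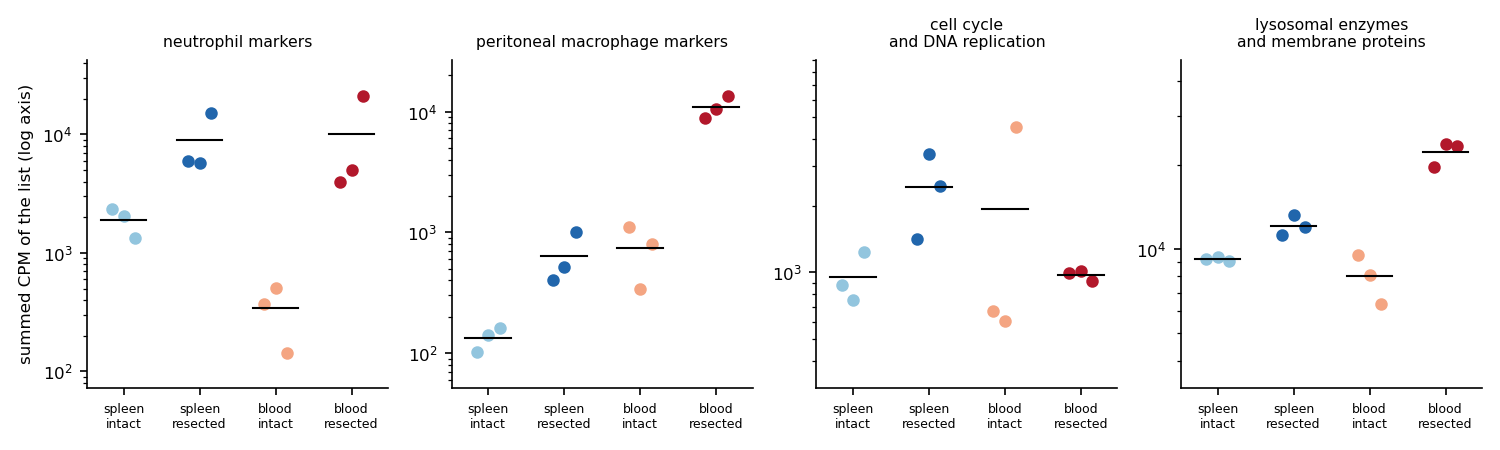
Summed CPM (log axis) of 4 gene lists in each of the 12 libraries, with group means as lines. Neutrophil markers summed to more after resection in both tissues, peritoneal macrophage markers reached 8912 to 13400 CPM in resected blood, cell cycle genes stood out in blood intact library 3, and lysosomal genes were highest in resected blood.

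The size of the differences was steadier than the calls. All 57 called features kept their sign in every fit that left out 1 library. Each such fit reused all but 1 of the libraries that chose these features, so the kept sign follows in part from the selection. The low-count filter was applied anew in each fit, which tested 21042 to 21192 features, so the tested set changed as well. The number of calls ran from 5 to 93 over these fits. It was 11, 5 and 7 without splenic intact library 1, 2 or 3, 8, 13 and 93 without splenic resected library 1, 2 or 3, 44, 11 and 80 without blood intact library 1, 2 or 3, and 56, 5 and 17 without blood resected library 1, 2 or 3. Slpi was the 1 gene symbol called in all 12 such fits. Clec10a was called in 9, Tnfsf9 in 8, Glmp in 6 and Spp1 in 4, with differences between 3.29 and 3.80 for Clec10a, 5.74 and 6.80 for Tnfsf9, 1.10 and 1.19 for Glmp and 6.52 and 7.87 for Spp1. Frat2, Gm34643, Pptc7 and Stx7 were called in 0 of the 12. Removal of 1 library moved an adjusted p more than the estimate: over these fits the highest adjusted p of a called feature was 0.172, for Ctsa.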

How the data were processed

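RNA-seq of CD115+ cells from 12 libraries was used, 3 in each of 4 groups given by the titles. The authors deposited a table of estimated counts per library, neither scaled to library size nor to gene length. The submitters' processing notes name STAR and the build GRCm39; the counting tool is not given in the sources used here. Each table had 67088 entries: 24256 gene symbols, 40274 RefSeq accessions and 2558 unassigned transcripts (not used; 1.75% to 4.33% of a library). Accessions were matched to symbols through RefSeq's table of GRCm38.p6, used for names only (25340 matched, 14934 kept as accessions), and counts were summed per gene and rounded.

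The counts were fitted in R 4.3.3 with edgeR 4.0.16 (filterByExpr, TMM, robust glmQLFit and glmQLFTest) over the 4 groups without covariates, and the difference of the 2 resection responses was the contrast. Calls needed an adjusted p (Benjamini-Hochberg) under 0.05 and an absolute log2 value above 1. The standard error is the absolute log2 value divided by the square root of F. Group spreads are between pools of 5 animals. A count of 3 corresponds to 0.0626 to 0.102 CPM, and limits and intervals cover counting error only. The TMM factors ran from 0.661 to 1.26. Within a group the libraries differed by 20.2 to 599 in chi-square per degree of freedom, so each was 1 replicate. The fit was tested on simulated data with less spread than these data, whose common dispersion was 0.312. That test therefore gives no error rate for the calls made here.

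Genes were named by a rule: Slpi, Clec10a, Tnfsf9 and Spp1, the 10 called symbols with the smallest p in each direction and at least 50 scaled counts in the highest group, the 6 with opposite responses, called members of the gene lists, and Csf1r. The other 26 called symbols were named after their values were seen. A few called genes were left out of the text and of the plot of called genes. The members and lists were chosen with earlier results of these data known, and no list was tested. Alternatives were DESeq2 1.42.0, other scaling and filters, the entries as deposited, symbols only, haemoglobin left out, a replicate block and each library left out.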

Additional observations from a re-analysis of the deposited data

Results flagged for a closer look

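The difference between the tissues was itself tested, and the genes given here differed between blood and spleen under the same contrast. There were 44 features with the higher and 13 with the lower response in blood. The differences on the log2 scale, blood minus spleen, were 3.30 for Slpi, 3.54 for Clec10a, 1.13 for Glmp, 6.30 for Tnfsf9, 2.12 for Plod3, 6.80 for Spp1, 2.64 for C1ra and 6.26 for Cyp26a1. They were 1.53 for Naglu, 1.57 for Spred2, 2.63 for Mertk, 3.23 for St14, 3.26 for Serpinb10, 5.99 for Mmp13 and 3.74 for Osm. With the lower response in blood, they were -3.55 for Raver2, -1.69 for Fam78a, -1.39 for Ddb2, -2.25 for Hid1, -1.40 for Frat2 and -1.34 for Josd1.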

How the results depend on the processing

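The 57 called features kept their sign under each alternative that tested them, which follows in part from their choice on the same libraries. The number of calls moved widely. It was 1163 with DESeq2, 2366 at an unadjusted p under 0.05 with the fold limit kept, 22 without the filter on low counts, 99 with at least 10 counts in every library and 111 over gene symbols only, and from 5 to 93 with 1 library left out. The share of higher calls, 77.2%, was 56.5% with DESeq2, 44.5% at an unadjusted p and 0% with the block below. With 1 library left out it ran from 20% to 80.7%: it was 20% without splenic intact 2 or blood resected 2, 41.2% without blood resected 3, 42.9% without splenic intact 3, 46.2% without splenic resected 2, 50% without splenic resected 1 and above 50% in the other 6 fits. With the replicate number as a block 1 feature was called, NR_176915, and Slpi had an adjusted p of 0.0505. The block fits 1 effect per number over all 4 groups, so it also ties intact to resected libraries and is not a pairing by animal. Intact and resected splenic libraries cannot share animals, as a spleen is collected once. Whether same-numbered blood and splenic libraries of the same state share animals is not given in the sources used here. Over all pairs of groups, correlations of deviations between same-numbered libraries ran from -0.05 to 0.19, with 2 of 18 above 0.1. These 18 include pairs of an intact and a resected library. In 9 of 18 comparisons, each among 3 numbers, the correlation was highest with the own number. Between resected blood and resected spleen the correlations were 0.04, 0.13 and 0.19 for the same number, and from -0.19 to 0.07 for different numbers. Deviations were taken from the group mean, so positive values for the same number go in part with negative ones for different numbers. The blood count of 2801 was 4350 at an unadjusted p and 4242 without the fold limit, and from 1627 to 2814 with 1 library left out. The splenic count of 277 was 2275 at an unadjusted p, 1564 with DESeq2, 101 without the filter, 489 with the stricter filter, 496 over symbols only and 150 with the block, and from 1 to 1025 with 1 library left out. The cause of these shifts was not tested. The difference of Csf1r changed sign from -0.05 to 0.0484 with the block and lay between -0.31 and 0.27 with 1 library left out, with positive values of 0.07, 0.21, 0.03 and 0.27 without splenic intact 1, splenic resected 2, blood resected 1 and blood intact 1. The median of all features was -0.12, and -0.08 with DESeq2's size factors. Depth limits genes at a few counts, such as Gm34643, Gm47922, Mmp13 and Mogat1.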
